A study of Homo sapiens with 6 samples.

Results

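Eukaryotic translation initiation factors are the proteins that bring the ribosome, the initiator tRNA and a messenger RNA together at the start codon. The genes described here are those whose symbol begins with EIF and a digit from 1 to 6, restricted to protein-coding genes and leaving out the EIF2AK kinases and chromosome Y. Of 143 rows with such a symbol, 87 were not protein-coding, 4 were EIF2AK genes and 1 lay on chromosome Y, which left 51 members of 61541 genes in the table. They comprised 4 members of the EIF1 group, 6 of EIF2, 5 of EIF2B, 14 of EIF3, 16 of EIF4, 5 of EIF5 and EIF6 alone. Of the 51 members, 49 averaged at least 1 CPM, the count scaled to a common library size, and were tested.

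RNA was sequenced from cells labelled A498, a human clear cell renal carcinoma line, in 3 libraries with a control short hairpin RNA (shcontrol) and 3 with a hairpin against RNF26 (shRNF26). RNF26 is a ubiquitin ligase of the endoplasmic reticulum membrane, and the series title links it to TSC1, which restrains the kinase complex mTORC1, an upstream control of initiation. Cells of both groups carried a hairpin delivered by what the labels call transfection and infection, and were grown in RPMI-1640 with serum. The labels give neither the hairpin sequences nor the time after delivery, and they do not say that replicates were separate cultures, so p-values here reflect the spread among the libraries alone, which may be technical.

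The libraries held 16682871 to 18021718 gene counts, and the RNF26 transcript itself stood at 2030, 1942 and 1945 CPM in the shcontrol libraries and 68.4, 69.2 and 68.3 CPM in the shRNF26 libraries. The renal identity comes from the label alone. Of 13 renal and clear cell carcinoma markers, 9 averaged under 1 CPM, among them CA9, PAX2 and the undetected EMX2, while all 9 squamous epithelial markers reached 1 CPM. The summed squamous markers were 1706 to 1800 CPM in the shcontrol libraries and 1351 to 1415 CPM in the shRNF26 libraries, and the renal markers 1456 to 1479 and 1136 to 1160 CPM, most of it from the general epithelial keratins KRT8 and KRT18. Leukocyte, endothelial and fibroblast lists each had 1 marker at or above 1 CPM, and the fibroblast sum, nearly all COL1A1, was 54.6 to 65.2 CPM in the shcontrol and 81.0 to 87.9 CPM in the shRNF26 libraries. The part of cell makeup in the results below was not tested. The labels name no batch or date.

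In outline, initiation is a cycle. The factor eIF2, loaded with GTP and initiator tRNA, joins the small ribosomal subunit together with eIF1, eIF1A, eIF3 and eIF5. The cap-binding complex eIF4F (eIF4E, eIF4G and the helicase eIF4A) recruits the messenger, the complex scans to the start codon, eIF5 promotes GTP hydrolysis on eIF2, eIF5B joins the large subunit, and eIF2B recharges eIF2 with GTP. Phosphorylation of the alpha subunit of eIF2 by stress kinases turns it into an inhibitor of eIF2B, and 4E-binding proteins, when mTORC1 is inactive, keep eIF4E from eIF4G.

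Initiation factor transcripts were more often lower than higher in the shRNF26 libraries. Of the 49 tested members, 22 fell, 7 rose and 20 did not pass (edgeR quasi-likelihood test, adjusted p below 0.05). Over all 14766 tested genes, 41.4% were called, 22.6% lower and 18.9% higher, against 44.9% and 14.3% of the tested members. The members were abundant, with a median of 138 CPM against 26.3 CPM over all tested genes, and among genes averaging at least 50 CPM 57.8% were called, with 34.6% lower and 23.2% higher, compared with 19 and 4 of the 38 members at that level. The median log2 fold change (here log2 change, shRNF26 against shcontrol) of the members was -0.12, beside 0.0079 over all tested genes, and 33 of the 49 (67.3%) had groups that did not overlap, compared with 50.1% of all tested genes. Most of these shifts were small, and the largest falls were EIF5A2, EIF1 and EIF5. Levels below are CPM scaled by the trimmed mean of M values (TMM) unless called counts, and they come from bulk RNA, in which fewer cells of a type and less RNA per cell cannot be told apart.

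The balance of calls depended on how libraries were scaled. The member median lay below that of all tested genes under both scalings. This gap could hardly differ between them, because a change of scaling moves all genes nearly alike. Scaling by total counts moved the median of all tested genes up by 0.09 on the log2 scale, to 0.099, and the member median became -0.02. It gave 16 members lower and 12 higher (32.7% and 24.5%), beside 15.4% and 30.1% of all tested genes (45.5% called in either direction). Among genes averaging at least 50 CPM, 60.9% were called, with 22.7% lower and 38.3% higher. Under that scaling EIF2S3, EIF3A, EIF3M, EIF4G1, EIF4G2 and EIF4H lost their calls as lower, and EIF2B1, EIF2B5, EIF3F, EIF4A3 and EIF4B were called higher. No member that was called under both scalings changed direction. This says little, because the change of scaling moved every member by nearly the same 0.09.

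**Figure D1:**
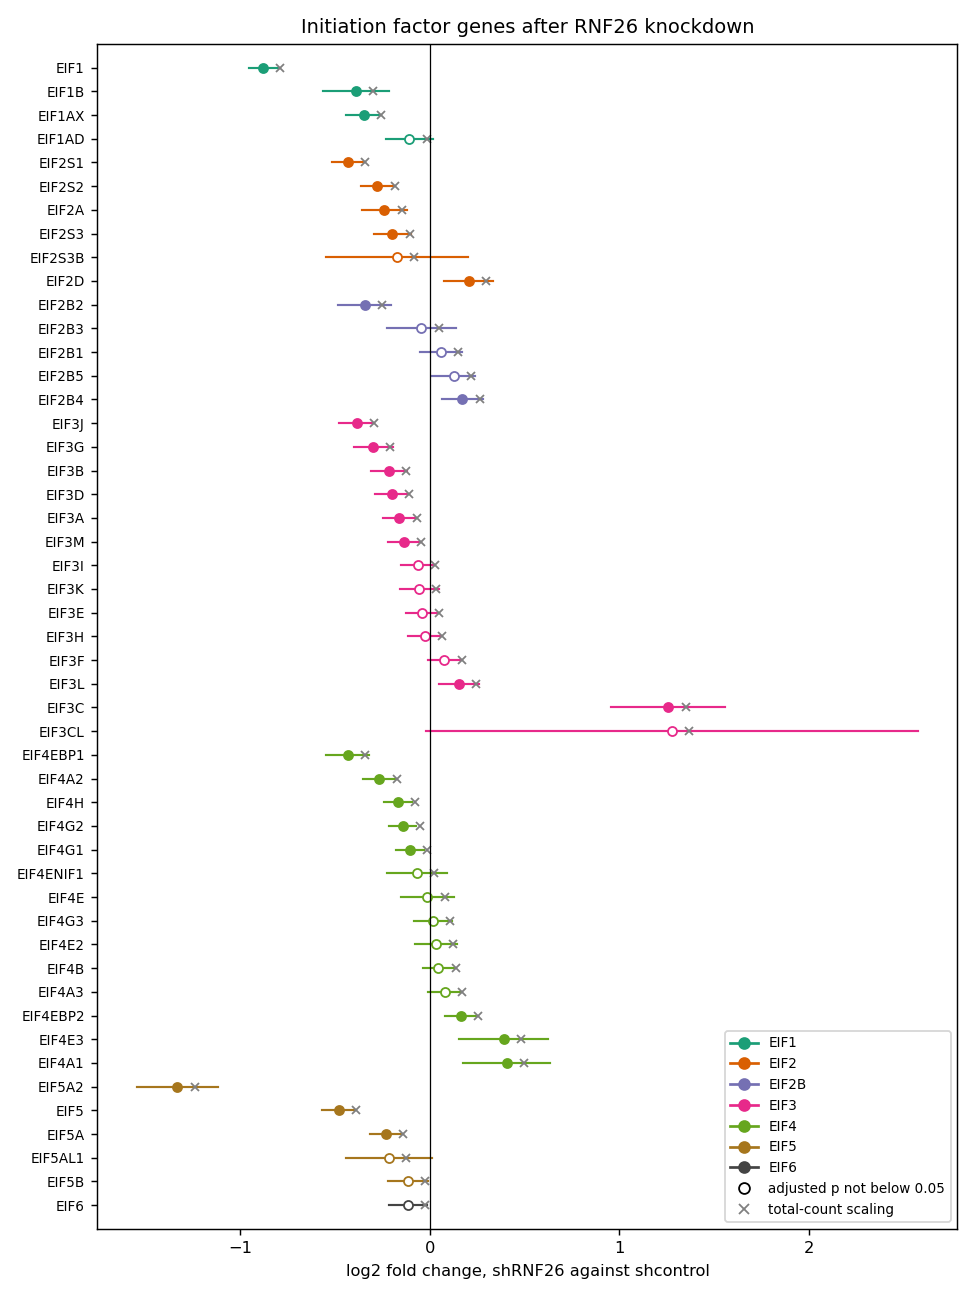
Log2 fold change (shRNF26 against shcontrol, horizontal axis) of the 49 tested members with 95% intervals, coloured by group and sorted within it. Filled points passed an edgeR adjusted p of 0.05, open points did not, and crosses give the value with total-count scaling, which lies to the right of the TMM value for each member; EIF5A2 (-1.33) and EIF1 (-0.88) stand farthest to the left.

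EIF1 (ENSG00000173812, chromosome 17), which holds the scanning ribosome open and rejects poor start codons, had the second largest fall of the members. Its level was 935, 940 and 1001 CPM in the shcontrol libraries and 528, 517 and 519 CPM in the shRNF26 libraries. The knockdown libraries lay close together, at 54.4% of the control level in the fit, and far from every control library. The log2 change was -0.88 (SE 0.036, edgeR adjusted p = 2.96e-13), and 3.09% of all tested genes were called lower by at least as much. EIF1AX, the X-linked gene of eIF1A, which works beside eIF1 in scanning, read 220, 219 and 232 CPM against 172, 169 and 185 CPM. Each knockdown library was below each control library (log2 change -0.35, SE 0.044, edgeR adjusted p = 3.91e-06). EIF1B, a close relative of EIF1 on chromosome 3, measured 33.2, 31.2 and 39.0 CPM against 27.2, 24.8 and 27.0 CPM. It fell by 0.39 on the log2 scale (SE 0.083, edgeR adjusted p = 0.000948), without overlap, although EIF1B overlaps an antisense gene, and although the library kit marks strand, the sources used here do not give the strand setting of the counting. EIF1AD, named for a domain like that of eIF1A, had 56.6 ± 3.77 and 52.5 ± 0.435 CPM (SD, n = 3 per group) and did not pass (edgeR adjusted p = 0.15). The 3 EIF1-group calls held with total-count scaling.

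The start codons of these genes are shown because eIF1 acts on the choice of start codon, and the preferred context has a purine at the third base before the start codon and a G just after it. The sequences are from GENCODE 29 principal transcripts, with 9 bases before the start codon and 3 after, the start codon in capitals:
EIF1: tcgtatcgtATGtcc
EIF1B: tagtatcgcATGtcc
EIF1AX: gccaccgccATGccc
EIF5: taagccaaaATGtct
EIF2S1: tacctcagaATGccg
EIF5A2: ctgcccaccATGgca
EIF4G2: gccgccaaaGTGgag
EIF1 and EIF1B have neither the purine nor the G. Among 18464 coding genes with a usable transcript, 6.9% have neither and 42.6% have both, and among 50 members 4 have neither (EIF1, EIF1B, EIF3B and EIF4E1B) and 22 have both. The 3 of these 4 that were tested (EIF1, EIF1B and EIF3B) all fell. For comparison, 22.6% of all tested genes fell, 34.6% of those averaging at least 50 CPM and 44.9% of the tested members. EIF1 and EIF1B are close relatives, and a link between context and change was not tested. EIF1AX, EIF5 and EIF2S1, which also fell, have the purine without the G, and EIF5A2, with the largest fall, has both. EIF4G2 is the single member whose annotated start codon is not ATG, as in 4 of the 18464 genes.

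The 3 subunits of eIF2 fell together. EIF2S1, the alpha subunit that stress kinases phosphorylate, was at 209, 219 and 223 CPM in the shcontrol libraries and 164, 159 and 160 CPM in the shRNF26 libraries. Its groups were far apart for their spread (log2 change -0.43, SE 0.042, edgeR adjusted p = 1.19e-07). EIF2S2, the beta subunit, read 250.05, 263 and 254 CPM against 207, 215 and 212 CPM, and fell by 0.28 on that scale (SE 0.040). EIF2S3, the X-linked gamma subunit that binds GTP and the initiator tRNA, read 283, 297 and 318 CPM against 259, 251 and 273 CPM, a log2 change of -0.20 (SE 0.046, edgeR adjusted p = 0.00201) that total-count scaling brought to -0.11 (edgeR adjusted p = 0.067). EIF2S3B, a chromosome 12 copy of EIF2S3, held 76 to 106 counts per library, did not pass (log2 change -0.17, edgeR adjusted p = 0.47), and may draw reads from EIF2S3. EIF2S1 overlaps ATP6V1D on the opposite strand.

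The remaining members, EIF2A and EIF2D, can deliver initiator tRNA outside the main route and went opposite ways. EIF2A fell from 97.5 ± 7.51 to 82.5 ± 2.34 CPM (log2 change -0.24, SE 0.056, edgeR adjusted p = 0.00199). EIF2D rose from 38.6, 40.6 and 40.1 CPM to 48.0, 43.5 and 46.1 CPM (log2 change 0.21, SE 0.061, edgeR adjusted p = 0.0117). The EIF2D call was lost without shRNF26 replicate 1 (edgeR adjusted p = 0.074). EIF2A overlaps SERP1 on the opposite strand.

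The exchange factor eIF2B, whose 5 subunits are encoded by EIF2B1 to EIF2B5, gave mixed calls. EIF2B2 (beta subunit) fell from 42.6, 44.0 and 39.7 CPM to 34.8, 33.5 and 31.2 CPM (log2 change -0.34, SE 0.067, edgeR adjusted p = 0.000427). EIF2B4 (delta subunit) rose from 62.4, 58.9 and 61.6 CPM to 69.3, 70.0 and 66.8 CPM (log2 change 0.17, SE 0.053, edgeR adjusted p = 0.0132), a call lost without shRNF26 replicate 1 or shcontrol replicate 2 (edgeR adjusted p = 0.051 and 0.074). EIF2B5, the catalytic epsilon subunit, read 54.7, 56.0 and 54.5 CPM against 57.9, 62.2 and 60.3 CPM. Its knockdown libraries were all above its control libraries, yet the log2 change of 0.13 (95% interval 0.01 to 0.24) did not pass after adjustment (edgeR adjusted p = 0.0701), and it did with total-count scaling (0.22). EIF2B1 (0.06) and EIF2B3 (-0.04) did not pass. All 5 genes overlap other genes on the opposite strand.

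**Figure D2:**
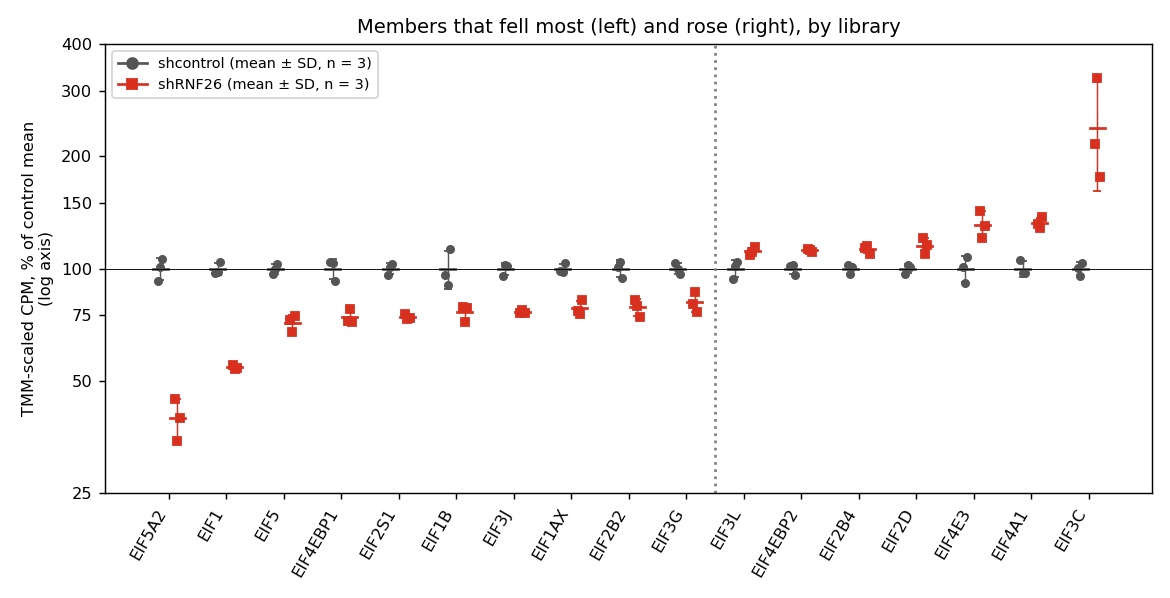
Level in each library as a percentage of the control mean (TMM-scaled CPM, log axis) for the 10 called members with the largest fall, left of the dotted line, and the 7 that rose, right of it. Grey circles are control libraries and red squares knockdown libraries, with mean ± SD (n = 3); no knockdown library overlaps the control range, and the shRNF26 libraries of EIF3C are the most scattered.

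The eIF3 scaffold, which prepares the small subunit for the messenger, split by subunit. EIF3J, a loosely attached subunit near the decoding site, fell most, from 149, 160 and 159 CPM to 119, 121 and 118 CPM. Its knockdown libraries were tightly grouped (log2 change -0.39, SE 0.044, edgeR adjusted p = 9.79e-07). EIF3G, an RNA-binding subunit, fell from 162, 157 and 152 CPM to 127, 136 and 120 CPM (log2 change -0.30, SE 0.049, edgeR adjusted p = 7.05e-05). EIF3B, which anchors EIF3G and EIF3I, fell from 461 ± 26.3 to 397 ± 19.1 CPM (-0.22), and EIF3D, which can itself bind the cap of some messengers, from 183 ± 6.50 to 159 ± 5.29 CPM (-0.20). Both calls held with total-count scaling, at -0.13 and -0.11. EIF3I, the remaining subunit outside the core, read 159 ± 2.74 and 153 ± 3.70 CPM and did not pass (-0.06). EIF3G, EIF3I and EIF3J each overlap a gene on the opposite strand (P2RY11, TMEM234 and SPG11).

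The 8 subunits with PCI or MPN domains that form the core of eIF3 (EIF3A, C, E, F, H, K, L and M) gave mixed calls. This division was made by structure after the values were seen. EIF3A, the largest subunit, was at 413, 421 and 387 CPM in the shcontrol libraries and 372, 368 and 352 CPM in the shRNF26 libraries, a log2 change of -0.16 (SE 0.041, edgeR adjusted p = 0.00372) that became -0.07 with total-count scaling and lost the call. EIF3M had -0.13 (edgeR adjusted p = 0.0146), also lost with that scaling and without shRNF26 replicate 1 or shcontrol replicate 2 (0.078 and 0.074). EIF3L rose from 85.5, 92.3 and 94.8 CPM to 98.9, 101 and 104 CPM (0.16, edgeR adjusted p = 0.0182). The EIF3L groups were separated by a narrow gap, and its call was lost without shRNF26 replicate 3 or shcontrol replicate 1 (edgeR adjusted p = 0.057 and 0.086). EIF3L also shares 41.1% of its annotated exon bases with another gene on the same strand. EIF3E (-0.04, 95% interval -0.13 to 0.05), EIF3F (0.08, -0.01 to 0.16), EIF3H (-0.03, -0.11 to 0.06) and EIF3K (-0.06, -0.16 to 0.05) did not pass. Outside the core 4 of 5 subunits fell and 0 rose under either scaling, and in the core 2 fell and 2 rose, or 0 and 3 with total-count scaling. The rises in the core include EIF3C, whose row is uncertain, as given below. Of all tested genes 22.6% fell and 18.9% rose, or 15.4% and 30.1% with total-count scaling. Among genes averaging at least 50 CPM, 34.6% fell and 23.2% rose, or 22.7% and 38.3% with total-count scaling. The 37.5% of core subunits that rose with that scaling are close to the last share. The 4 of 8 called in the core (50%) compare with 41.4% of all tested genes and 57.8% of those averaging at least 50 CPM.

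EIF3C is given together with EIF3CL, a near-identical copy on chromosome 16, because reads can match both. EIF3C held 653, 587 and 634 counts in the shcontrol libraries and 1429, 2230 and 1129 in the shRNF26 libraries, or 37.5, 35.7 and 38.6 CPM against 80.4, 121 and 65.7 CPM. EIF3CL held 106, 184 and 86 counts against 67, 74 and 813. The division between the copies was erratic: EIF3CL took 11.9% to 23.9% of their joint counts in the shcontrol libraries, 4.48% and 3.21% in knockdown replicates 1 and 2, and 41.9% in knockdown replicate 3. Summed, the copies gave 759, 771 and 720 counts against 1496, 2304 and 1942. Each knockdown sum was above each control sum, and the summed row was 2.40-fold higher (log2 change 1.26, SE 0.099, edgeR adjusted p = 4.92e-09). EIF3C alone gave the same 1.26 (SE 0.143), and EIF3CL alone 1.28 (SE 0.62, edgeR adjusted p = 0.11), which turned to -0.94 (edgeR adjusted p = 0.00795) without knockdown replicate 3. The sources used here do not say how reads that match both copies were counted, or whether they were left out. The values of both rows and of their sum are therefore uncertain.

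**Figure D3:**
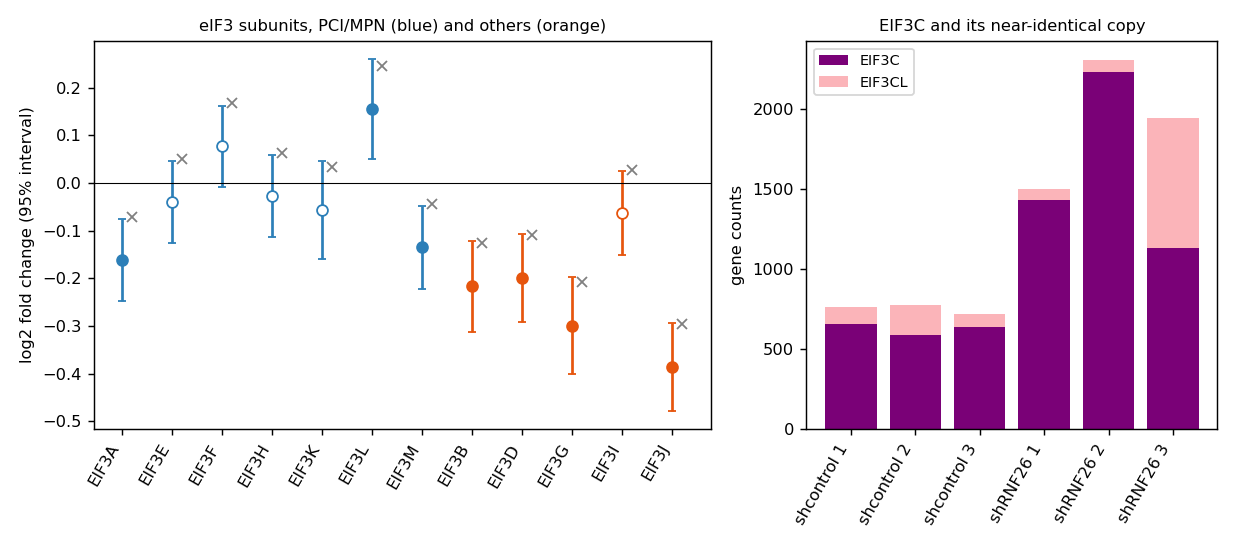
Left, log2 change with 95% interval of the eIF3 subunits other than EIF3C, with PCI or MPN subunits in blue, the others in orange, open points for an edgeR adjusted p not below 0.05 and crosses for total-count scaling. Right, stacked gene counts of EIF3C and EIF3CL in each library, with joint counts of 720 to 771 in the shcontrol libraries and 1496 to 2304 in the shRNF26 libraries.

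In the cap-binding complex, EIF4E did not pass and EIF4G1 had a small fall. The eIF4A genes are described after them: EIF4A2 fell more, and the EIF4A1 row is uncertain. EIF4E, which binds the cap, read 51.9, 62.5 and 58.9 CPM in the shcontrol libraries and 57.8, 54.2 and 59.7 CPM in the shRNF26 libraries. The groups overlapped (log2 change -0.01, 95% interval -0.15 to 0.13). EIF4G1, the scaffold, was at 693, 689 and 661 CPM against 634, 643 and 625 CPM. Its log2 change of -0.10 (SE 0.035, edgeR adjusted p = 0.0233) became -0.01 with total-count scaling, and the call was also lost without shRNF26 replicate 1, shRNF26 replicate 3 or shcontrol replicate 2 (edgeR adjusted p = 0.094, 0.084 and 0.084). EIF4G3, a related scaffold, read 92.0, 94.3 and 91.2 CPM against 96.2, 95.2 and 89.0 CPM, with overlapping groups (0.02). EIF4E2, a cap-binding relative that represses translation, read 67.9, 71.2 and 69.5 CPM against 69.7, 74.4 and 69.2 CPM, also with overlap (0.03). EIF4E3, a weakly expressed cap-binding relative, rose from 9.48, 8.58 and 10.1 CPM to 13.4, 11.3 and 12.2 CPM (0.39, SE 0.112, edgeR adjusted p = 0.00898), a call lost without shRNF26 replicate 1 or shcontrol replicate 2 (edgeR adjusted p = 0.059 and 0.051). EIF4E1B had 0 counts in all 6 libraries, which allows up to 3 counts or 0.166 to 0.180 CPM of total counts, for counting error alone.

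The helicase genes and their helpers went different ways. EIF4A2 fell from 220, 231 and 231 CPM to 192, 187 and 187 CPM (log2 change -0.27, SE 0.040, edgeR adjusted p = 3.12e-05), and the call held with total-count scaling. EIF4A1, in most cells the principal eIF4A, held only 134 to 154 counts in the shcontrol libraries and 196 to 199 in the shRNF26 libraries, or 8.85, 8.16 and 8.16 CPM against 11.03, 10.8 and 11.5 CPM (0.41, edgeR adjusted p = 0.0061). Of its annotated exon bases, 41.1% also belong to the read-through gene SENP3-EIF4A1 (11 to 22 counts per library) or another gene on the same strand, so its row may miss reads, and its level and change are uncertain. The pseudogene row EIF4A1P10 held 134% of the counts of EIF4A1 and went the other way (log2 change -0.40, edgeR adjusted p = 0.0191). EIF4A3, the helicase of the exon junction complex, did not pass (0.08), nor did the helicase cofactor EIF4B (0.05), and both were called higher with total-count scaling (0.17 and 0.14). EIF4H, another cofactor, fell from 779 ± 6.37 to 694 ± 20.2 CPM (-0.17), and EIF4G2, a scaffold without the cap-binding partner site, from 1629 ± 49.7 to 1475 ± 41.8 CPM (-0.14). Neither call held with total-count scaling (-0.08 and -0.05).

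The repressors of eIF4E moved apart. EIF4EBP1, the 4E-binding protein 1 gene on chromosome 8, fell from 111, 110 and 98.7 CPM to 77.2, 83.0 and 76.7 CPM, with each knockdown library below each control library (log2 change -0.43, SE 0.055, edgeR adjusted p = 3.67e-06). EIF4EBP2 rose from 178, 179 and 169 CPM to 198, 197 and 194 CPM (0.16, SE 0.041, edgeR adjusted p = 0.0034). EIF4EBP3 had 3 to 5 counts per library, was not tested and lies within the read-through gene ANKHD1-EIF4EBP3. EIF4ENIF1, which carries eIF4E into the nucleus and to repressed messengers, did not pass (-0.07).

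EIF5, the GTPase activator of eIF2, fell from 674, 694 and 716 CPM to 505, 470 and 518 CPM (log2 change -0.48, SE 0.041, edgeR adjusted p = 1.5e-08). The drop of 1.40-fold was several times the spread within either group, and no gene of GENCODE 29 overlaps its exons. EIF5A2, a relative of the elongation factor eIF5A that carries the same hypusine modification, had the largest fall of all members, from 22.6, 24.7 and 25.8 CPM to 10.9, 8.42 and 9.66 CPM. It held 393 to 423 counts in the shcontrol libraries and 155 to 194 in the shRNF26 libraries, a 2.52-fold drop (log2 change -1.33, SE 0.103, edgeR adjusted p = 4.42e-09). EIF5A itself fell less, from 757, 725 and 732 CPM to 649, 643 and 593 CPM (-0.23, SE 0.039, edgeR adjusted p = 9.85e-05). EIF5AL1, a chromosome 10 copy of EIF5A, did not pass (-0.22, edgeR adjusted p = 0.12), and adding its reads to EIF5A left the value at -0.23. EIF5B, the GTPase of subunit joining, read 151, 169 and 161 CPM against 148, 140 and 155 CPM, with overlapping groups (-0.12, 95% interval -0.22 to -0.01, edgeR adjusted p = 0.0725). EIF6, which keeps the ribosomal subunits apart, read 138, 129 and 141 CPM against 122, 126 and 129 CPM, and did not pass either (-0.12, 95% interval -0.21 to -0.02, edgeR adjusted p = 0.057). EIF5B passed without shRNF26 replicate 3 or shcontrol replicate 1, EIF6 without shcontrol replicate 2 and EIF5AL1 without shRNF26 replicate 2 (edgeR adjusted p = 0.034, 0.013, 0.028 and 0.047). Besides those named above, the called members EIF3A, EIF3L, EIF3M, EIF4A2, EIF4E3, EIF4G2 and EIF5A overlap a gene on the opposite strand. Grouped by role after the values were seen, the 7 genes of start codon recognition and subunit joining (EIF1, EIF1AX, EIF2S1, EIF2S2, EIF2S3, EIF5 and EIF5B) had 6 falls and 0 rises, and 5 falls with total-count scaling. For comparison, 22.6% of all tested genes fell, 34.6% of those averaging at least 50 CPM, and 15.4% of all with total-count scaling.

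Promoter windows from RefSeq (GRCh38.p14, 250 bases before to 50 after the annotated start) were at hand for 43 of the 51 members and searched on both strands for short motifs chosen after the values were seen. The AP-1 letters TGANTCA occurred in 4 of the 43 (9.30%) and in 9.37% of all 27305 genes with a window. These 4 were EIF5, EIF3J, EIF4G1 and EIF5AL1, of which 3 fell (2 with total-count scaling) and EIF5AL1 did not pass. For comparison, 22.6% of all tested genes fell, 34.6% of those averaging at least 50 CPM and 44.9% of the tested members. With total-count scaling 15.4% of all tested genes and 32.7% of the tested members fell. EIF4G1 has several annotated start sites, and its AP-1 letters lie only in the window of the most downstream. EIF5 has 2 annotated start sites, and the window of one holds the AP-1 letters at 2 places, 77 and 50 bases before the start. They are shown, with the letters in capitals, because EIF5 and EIF3J were among the larger falls:
EIF5, chr14:103334802-103334826, plus strand: cgctcgggcTGACTCAggcttcagc
EIF5, chr14:103334829-103334853, plus strand: ctgcatttgTGAGTCAtcgcgcgct
EIF3J, chr15:44537118-44537142, plus strand: caaacccagTGACTCAcctccgccg
EIF4G1, chr3:184320222-184320246, plus strand: ggaagccgcTGAGTCAccctggctc
The pieces at EIF5 and EIF3J overlap, in part or whole, first exons of other annotated transcripts of the same gene. The C/EBP-ATF letters TGATGNAA were found in EIF4E3 alone, and the cyclic AMP response element TGACGTCA in no member window. The E-box CACGTG occurred in 11 of 43 members (25.6%, against 8.77% of all genes) and the ETS core CCGGAAG in 12 (27.9%, against 12.2%). The 27305 genes were not filtered for coding type or expression, whereas the members are coding and mostly abundant, so these shares compare unlike sets. Among the 10 tested members with an E-box, 4 fell and 0 rose, and with total-count scaling 2 fell and 3 rose, beside 22.6% lower and 18.9% higher, or 15.4% and 30.1%, of all tested genes. The E-boxes of EIF5A2, the member with the largest fall, lie 187 and 162 bases before its start:
EIF5A2, chr3:170908778-170908857, minus strand: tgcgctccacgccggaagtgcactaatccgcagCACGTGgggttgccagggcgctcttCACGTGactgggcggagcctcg
A match is a description of these letters and was not tested as a binding site.

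Messengers that begin with a C followed by a run of pyrimidines are known for translational control by mTORC1 through LARP1. A start of C and 4 further pyrimidines at the RefSeq start site was found in 10 of the 43 members (23.3%). It was found in 5.14% of all genes with a window, which were not filtered for coding type or expression. The 10 members were EIF2A, EIF2D, EIF2S3, EIF2S3B, EIF3D, EIF3F, EIF3K, EIF3M, EIF4A2 and EIF4B. Windows with 10 bases before and 20 from the start, the pyrimidine run in capitals, are shown for 4 of them that span the range of response, and for EIF1, whose transcript starts with a G:
EIF4A2, chr3:186783567-186783596, plus strand: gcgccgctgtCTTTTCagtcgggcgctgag
EIF3D, chr22:36529147-36529176, minus strand: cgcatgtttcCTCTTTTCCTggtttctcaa
EIF3F, chr11:7987327-7987356, plus strand: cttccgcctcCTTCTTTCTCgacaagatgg
EIF2D, chr1:206612446-206612475, minus strand: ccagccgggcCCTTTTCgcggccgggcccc
EIF1, chr17:41688875-41688904, plus strand: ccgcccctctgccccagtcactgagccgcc
Of the 10, 5 fell, 1 rose (EIF2D) and 4 did not pass (3 fell and 3 rose with total-count scaling), with log2 changes from -0.27 (EIF4A2) to 0.21 (EIF2D) and a median of -0.15. The 50% that fell compare with 22.6% of all tested genes, 34.6% of those averaging at least 50 CPM and 44.9% of the tested members. With total-count scaling 30% fell, against 15.4% of all tested genes and 32.7% of the tested members. The 30% that rose with that scaling are at the 30.1% of all tested genes. None of the 3 largest falls (EIF5A2, EIF1 and EIF5) had such a start. Counts of transcripts do not measure their translation.

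Levels can be compared between genes only per length. Per kilobase of GENCODE 29 principal transcript, the 4 highest members in the shcontrol libraries were EIF4G2 (827 CPM per kilobase), EIF5A (488), EIF1 (411) and EIF4H (291). The same 4 came first per kilobase of merged exons, in another order, with EIF1 at the top (265 CPM per kilobase) and EIF4G2 at rank 4 (188). The first place of EIF4G2 thus rests on its annotated principal transcript of 1.97 kilobases, and whether that transcript is complete was not checked. In the shRNF26 libraries EIF1 stood at 224 CPM per kilobase of principal transcript, below EIF4H at 259. EIF4E, by the same measure, was at 5.01 CPM per kilobase in the shcontrol libraries, with an annotated principal transcript of 11.5 kilobases.

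Several initiation factors come as pairs of related genes, and the share of 1 gene in the counts of its pair does not depend on library scaling. EIF4EBP1 made up 38.4%, 38.1% and 36.9% of the counts of EIF4EBP1 and EIF4EBP2 in the shcontrol libraries and 28.0%, 29.7% and 28.3% in the shRNF26 libraries. This drop of 9.14 percentage points was the widest of the 6 pairs on that scale, on which a gene with a small share can fall little. The log2 changes within a pair lay farther apart for EIF5A2 (-1.33) and EIF5A (-0.23) than for EIF4EBP1 (-0.43) and EIF4EBP2 (0.16). They also lay farther apart for EIF4A1 (0.41), whose row is uncertain, and EIF4A2 (-0.27). The share of EIF5A2 in EIF5A and EIF5A2 went from 3.19% to 1.52%, and that of EIF1B in EIF1 and EIF1B from 3.46% to 4.80%. EIF4A1 went from 3.57% to 5.56% of EIF4A1 and EIF4A2, with the doubt about its row given above, and EIF4G1 from 88.0% to 87.2% of EIF4G1 and EIF4G3. In each of these 5 pairs the groups did not overlap (two-sided exact permutation p = 0.1, the smallest that 3 against 3 allows, and 0.12 adjusted over the 6 pairs), so none could reach 0.05. For comparison, the groups did not overlap in the levels of 50.1% of all tested genes and 67.3% of the tested members. Shares of other gene pairs were not computed. EIF4E and EIF4E2 overlapped, with EIF4E at 45.3% ± 1.78 and 44.6% ± 2.18 (SD, n = 3, exact permutation p = 0.6).

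**Figure D4:**
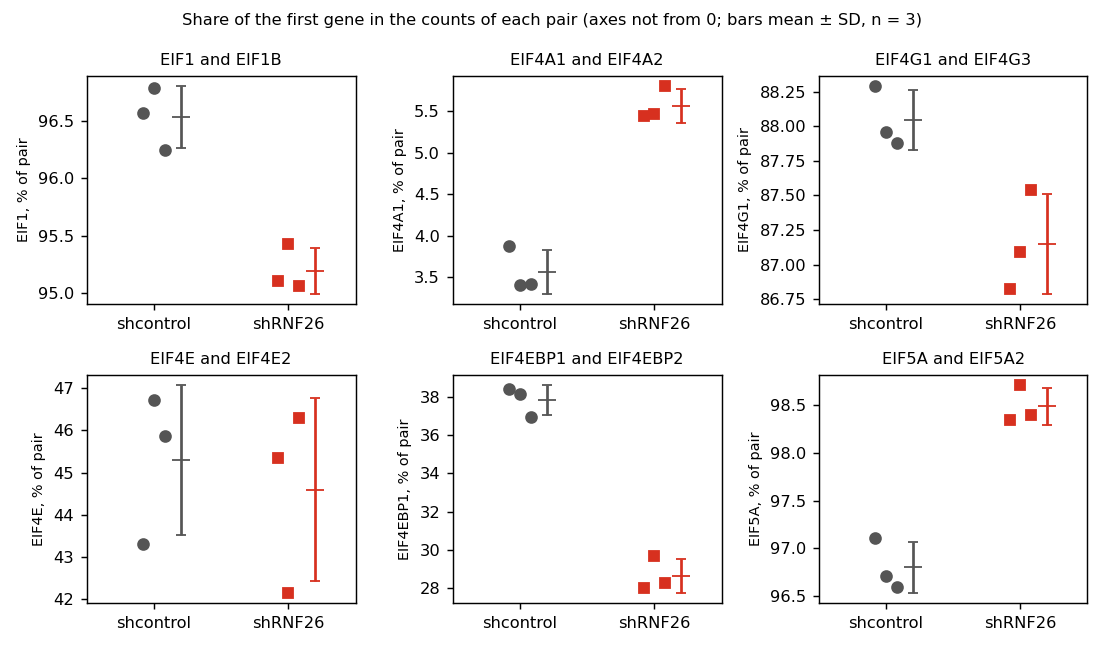
Share of the first named gene in the joint counts of each of 6 pairs of related genes (percent, vertical axes that do not start at 0), with 1 point per library and mean ± SD (n = 3) beside them. The groups are apart in 5 pairs, most widely in percentage points for EIF4EBP1 (37.8% ± 0.785 against 28.7% ± 0.888), and overlap for EIF4E.

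Other genes of initiation were described from a list of 40 regulators and cofactors, all tested. Of these, 16 fell, 6 rose and 18 did not pass (40% and 15%), with a median of -0.04, and with total-count scaling 8 fell and 15 rose (20% and 37.5%). Of all tested genes 22.6% fell and 18.9% rose, or 15.4% and 30.1% with total-count scaling, so that under that scaling the list was close to the background. The largest changes were falls. PPP1R15A, the stress-induced subunit that directs a phosphatase to eIF2 alpha, fell from 567 ± 15.03 CPM to 84.6 ± 4.48 CPM (SD, n = 3), a log2 change of -2.74 (edgeR adjusted p = 3.80e-19), and PPP1R15B, its constitutive counterpart, from 152 ± 9.48 to 107 ± 10.1 CPM (-0.50). MKNK2, a kinase of eIF4E, fell from 242 ± 17.9 to 155 ± 5.55 CPM (-0.65), and BZW1, an eIF5 mimic that competes with eIF5 for eIF2, from 399 ± 20.7 to 268 ± 14.4 CPM (-0.58). These 4 calls held with total-count scaling.

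The factors of the later steps were also listed. Of 23 listed genes of elongation and termination 1 was not matched by name and EEF1G was listed at 0 counts in all libraries. Whether the EEF1G row missed reads in counting was not tested, so it does not show that the gene was silent. Of the 21 tested, 9 fell, 2 rose and 10 did not pass, and with total-count scaling 6 fell and 6 rose. These are 42.9% lower and 9.52% higher, against 22.6% and 18.9% of all tested genes, and 28.6% each with total-count scaling, against 15.4% lower and 30.1% higher. EEF1A2, at 4.53 CPM in the shcontrol libraries, had the largest fall (-0.52, which total-count scaling did not keep, nor did leaving out 1 library, with an edgeR adjusted p of up to 0.0997), followed by DPH3 (-0.43) of diphthamide synthesis and the ribosome rescue factors PELO (-0.36) and HBS1L (-0.29). Of 9 tested mitochondrial translation factors, 2 fell and 1 rose: the release factor MTRF1L (-0.74) and the rescue factor MTRFR (-0.31) were lower, and the recycling factor MRRF was higher (0.29). The share that fell, 22.2%, is at the 22.6% of all tested genes, and 11.1% rose, against 18.9%.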

How the data were processed

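RNA-seq of 6 libraries was analysed, 3 shcontrol and 3 shRNF26, grouped by the sample titles. The authors deposited 1 gene table of raw counts (whole numbers that sum to 16682871 to 18021718 per library, despite FPKM in its name). The build was hg19, per the submitters' processing notes, and the library kit marks strand, per the labels' protocols. The aligner, the counter and its strand setting were not given in the sources used here. Rows with a blank gene name (2, holding 0% of counts) were left out.

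Symbols came from a gene table (61369 IDs) or GENCODE 29 (159 IDs), which also gave biotype, overlaps and lengths on GRCh38. No coordinates of counts are given, because the builds differ. Genes with a mean of at least 1 CPM (14766) were tested with edgeR 4.0.16 in R 4.3.3 (quasi-likelihood, TMM, Benjamini-Hochberg over all tested genes, threshold 0.05, the 6 libraries in 1 fit). Standard errors and 95% intervals of log2 fold changes come from that fit. Shares of gene pairs were compared with two-sided exact permutation tests. The edgeR step was tested on simulated data. Alternatives were DESeq2 1.42.0, 2 other scalings, no filter or a mean of 5 CPM, a replicate block and leaving out each library. Summing near-identical copies and leaving out uncertain rows were chosen after seeing the data.

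The members and the gene lists were chosen with earlier results of these data known. A marker of the renal list is not reported here. Every member is named. Values per library are given for the 10 largest falls and rises among called members without overlap, for core factors and for gene pairs, and up to 4 called genes are named from each other list. Among the tested members the largest standard error was that of EIF3CL (0.62).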

Additional observations from a re-analysis of the deposited data

How the results depend on the processing

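The scaling of libraries mattered most, and it also moved the median of all tested genes, from 0.0079 to 0.099. With total-count scaling the members called higher went from 7 to 12, their median log2 fold change from -0.12 to -0.024, the EIF2B genes called from 2 to 4, other initiation genes from 6 higher and 16 lower to 15 and 8, elongation and termination genes called higher from 2 to 6 and mitochondrial factors called higher from 1 to 2, the last also with a minimum of 5 CPM. Leaving out the uncertain rows gave 4 members higher and 22 lower. Leaving out 1 library in turn gave 5 to 8 members higher, 20 to 23 lower and a member median of -0.14 to -0.091, with 3 EIF1 genes called throughout, 4 to 5 EIF2, 1 to 2 EIF2B, 7 to 9 EIF3, 6 to 8 EIF4, 3 to 4 EIF5 and 0 to 1 for EIF6. It gave 4 to 6 other initiation genes higher and 11 to 16 lower, 2 elongation and termination genes higher and 7 to 10 lower. The share of EIF4E in its pair differed by -1.70 to 0.52 percentage points. EIF3CL ranged from -0.94 to 1.76, reversed without shRNF26 replicate 3, the library with most of its counts. The calls of EIF2B4, EIF2D, EIF3L, EIF3M, EIF4E3 and EIF4G1 were lost without at least 1 library. The cause was not tested. Same-numbered replicates share only a number (correlations of deviations 0.01, -0.03 and 0.09, and not every library correlated best with its own number). With the replicate block 7 members were higher and 24 lower, EIF5B and EIF6 being added (EIF6 calls 1). DESeq2 gave 7 higher and 22 lower. EIF4E1B and EIF4EBP3 averaged under 1 CPM and so were not tested.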

Other observations

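Rows of initiation factor pseudogenes, which are not members, were mostly silent: of 81 such rows 9 were tested. Of these, EIF1AXP1 (log2 fold change -0.46), EIF2S2P4 (-0.52) and EIF4A1P10 (-0.40) fell by the same edgeR test, 0 rose and 6 did not pass, and 8 of the 9 had the sign of their parent gene. EIF4A1P10, the exception, held 134% of the counts of EIF4A1 itself and fell while EIF4A1 was called higher. Reads of a parent gene and its processed copies can be hard to separate, and the sources used here do not say how the counting placed them.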
